A study of Mus musculus with 23 samples.

Results

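The interferon and antigen presentation genes described here are 46 genes listed by name, 22 of them type I interferon targets and 24 targets typical of interferon gamma. Of the 46, 45 had a probe of that name on the array and all 45 were above background on every array. The exception was *Tgtp1*, which is named on no probe. For each gene the probe with the highest mean signal over all arrays was used, out of 24167 genes tested in the same way. RNA of the whole ileum was measured on single-colour Agilent arrays, 1 for each of 23 male mice. The 4 groups were wild-type C57BL/6J mice given corn oil (WT CONT, 6 arrays), wild-type mice given pregnenolone 16α-carbonitrile (PCN), a steroid that activates the rodent pregnane X receptor (WT PCN, 5 arrays), mice lacking that receptor given oil (Pxr-/- CONT, 6 arrays) and mice lacking it given PCN (Pxr-/- PCN, 6 arrays). PCN was injected intraperitoneally once a day for 4 days at 100 mg/kg in corn oil, control animals got the oil alone, and tissue was taken 6 h after the final dose, at ZT6. WT mice were purchased when 6 weeks old and were given 2 weeks to acclimatize. Pxr-/- mice were backcrossed to the same strain and had been bred in house for 10 years. The age of each animal is not given in the sources used here. Genotype and breeding origin cannot be told apart in any comparison of genotypes, and comparisons that share a group of arrays are not independent of each other.

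Interferons are cytokines of antiviral defence. Type I interferons signal through IFNAR, JAK1 and TYK2 to a complex with STAT2 and IRF9 that binds the interferon-stimulated response element (ISRE), whereas interferon gamma, made mainly by T cells and NK cells, acts through the gamma-activated site (GAS). Type I targets include the Ifit, Oas and Mx families and the ubiquitin-like modifier ISG15, and gamma-type targets include the guanylate-binding and immunity-related GTPases, the chemokines CXCL9 and CXCL10, and the machinery that loads peptides on MHC class I and class II. The programmes overlap, since interferon gamma also induces many ISRE genes through IRF1. In the ileum, intraepithelial lymphocytes and a dense microbiota maintain a basal interferon tone in the epithelium.

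The letters that tell these response elements apart can be seen upstream of several members, and 8 stretches are shown because the classes are compared throughout. Each is the 110 bases before the annotated start (RefSeq, build GRCm38.p6), written 5′ to 3′ on the gene's strand, with capitals marking GAAANNGAAA (ISRE letters) or TTCNNNGAA (GAS letters) on either strand. The type I stretches are *Isg15* at chr4:156200819-156200928 (minus strand), *Ifit1* at chr19:34640779-34640888 (plus strand) and *Oas1a* at chr5:120907526-120907635 (minus strand).
Isg15: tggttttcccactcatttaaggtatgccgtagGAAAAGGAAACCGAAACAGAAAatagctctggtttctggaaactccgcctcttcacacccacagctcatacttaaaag
Ifit1: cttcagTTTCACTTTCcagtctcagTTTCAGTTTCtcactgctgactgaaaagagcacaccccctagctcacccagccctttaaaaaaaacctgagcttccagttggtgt
Oas1a: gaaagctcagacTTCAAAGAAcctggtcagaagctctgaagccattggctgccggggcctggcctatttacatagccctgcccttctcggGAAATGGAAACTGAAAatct
The gamma-type stretches are *Igtp* at chr11:58199446-58199555 (plus strand), *Irgm2* at chr11:58214867-58214976 (plus strand), *Gbp2* at chr3:142620553-142620662 (plus strand), *Irf1* at chr11:53769904-53770013 (plus strand) and *Psmb8* at chr17:34198085-34198194 (plus strand).
Igtp: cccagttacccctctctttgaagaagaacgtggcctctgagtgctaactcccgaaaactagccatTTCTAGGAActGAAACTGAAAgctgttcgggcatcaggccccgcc
Irgm2: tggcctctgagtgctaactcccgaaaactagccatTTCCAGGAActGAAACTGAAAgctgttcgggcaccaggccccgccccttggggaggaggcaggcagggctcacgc
Gbp2: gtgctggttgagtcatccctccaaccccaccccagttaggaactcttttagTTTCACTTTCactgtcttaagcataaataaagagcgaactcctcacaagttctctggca
Irf1: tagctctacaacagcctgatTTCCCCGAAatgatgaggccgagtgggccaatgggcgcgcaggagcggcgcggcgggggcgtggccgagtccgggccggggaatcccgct
Psmb8: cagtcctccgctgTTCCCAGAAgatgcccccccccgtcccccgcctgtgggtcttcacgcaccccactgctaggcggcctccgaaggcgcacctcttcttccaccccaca
In *Isg15* 3 overlapping ISRE matches run together, and *Oas1a* holds 2 that overlap. *Igtp* and *Irgm2*, neighbouring GTPase genes, hold a GAS match followed by an ISRE match, and their stretches are alike at 78 of 80 aligned bases. *Irf1* and *Psmb8* hold GAS letters alone.

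A window of 250 bases before the start was given for 33 of the 46 genes. ISRE letters occurred in 9 of 17 type I windows and in 8 of 16 gamma-type windows, against 3.46% of all genes with such a window. GAS letters occurred in 3 type I and 6 gamma-type windows, against 8.13% of all genes. These matches describe letters and not binding. *Oas2*, *Mx1*, *Mx2*, *Usp18*, *Zbp1*, *Gbp4*, *Gbp6*, *Iigp1*, *Tap2*, *Ciita*, *Nlrc5*, *H2-Ab1* and *Cd74* had no entry.

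Across arrays 60.9 to 67.3% of probes were above background, and the median correlation of an array with its own group was 0.990 to 0.994. All 8 enterocyte markers were above background on every array. For the receptor gene, *Nr1i2*, the log2 level ranged over 11.82 to 12.36 (median 12.20) in WT CONT and over 11.42 to 12.27 (median 11.66) in Pxr-/- CONT. It read 12.53, 12.32, 11.57, 12.10 and 12.41 in WT PCN and ranged over 11.38 to 11.90 (median 11.74) in Pxr-/- PCN. This probe was bright in every group, and whether it lies in the deleted part of the gene is not given in the sources used here, so it does not check the genotype labels. Of the arrays that stood apart in the genes described here, 1 was low in both classes. Pxr-/- PCN replicate 5 had a mean centred level (the average over members of the log2 level minus that member's mean over all arrays) of -0.76 for the type I members and -0.91 for the gamma-type members, while the other 5 arrays of its group lay at 0.26 to 1.08 and 0.15 to 0.74. Its T cell and cytotoxic lymphocyte markers were also low, at -0.87 against 0.16 to 0.46 on the others. In whole tissue, fewer cells of a type and less RNA per cell cannot be told apart. Calls, class medians and class counts of the members that rest on Pxr-/- PCN replicate 5 are given with and without it. Counts of pathway genes and of cell markers are given with it only. WT PCN replicates 2 and 3 stood apart in B cell markers, at 2.01 and 2.11, against -0.17 to -0.10 on the other 3 arrays of that group.

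**Figure D1:**
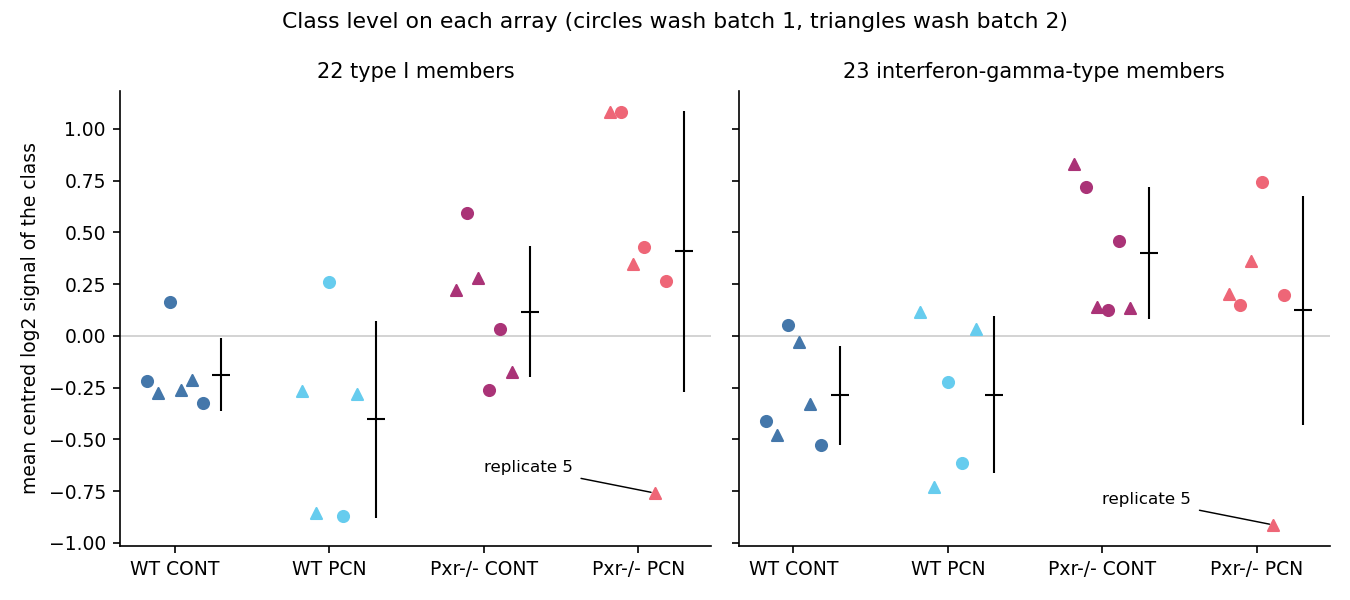
Mean centred log2 level of the 22 type I members (left) and the 23 measured interferon-gamma-type members (right) on each array, by group, with the mean ± SD of the group in black and the wash batch as the symbol. Pxr-/- CONT arrays sit at 0.12 to 0.83 for the gamma-type members against -0.53 to 0.05 in WT CONT, and Pxr-/- PCN replicate 5 lies below every other array in the right panel.

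To see how loss of the receptor was associated with these genes in the absence of ligand, Pxr-/- CONT was compared with WT CONT. All 23 gamma-type members were higher in Pxr-/- CONT, with a median log2 difference of 0.62 (1.54-fold), and the type I members were less displaced, with a median of 0.26 and 19 of 22 higher. The median over all genes tested was -0.00013. None of the 45 members was called by limma, which took a Benjamini-Hochberg adjusted p no higher than 0.05 over all tested probes together with a fold over 1.5, where 0.174% of all genes were called. At an unadjusted p under 0.05, 18 of 23 gamma-type members and 1 of 22 type I members were higher and none was lower, against 4.47% of all genes higher. The smallest adjusted p among members was 0.0871 (*Psmb9*). The 6 Pxr-/- CONT arrays all lay above the 6 WT CONT arrays for *Nlrc5*, *Igtp*, *Psmb8*, *Psmb9*, *Ubd* and *Zbp1*, which makes 6 of 45 members, against 0.559% of all genes. The call depended on which arrays gave the spread. With only the 12 arrays of these groups in the fit, 7 members were higher past both thresholds (*Igtp*, *Nlrc5*, *Psmb8*, *Psmb9*, *Tap1*, *Ubd* and *Zbp1*), against 0.215% of all genes. With Pxr-/- PCN replicate 5 left out, which belongs to neither group but shares the estimate of spread, 7 were higher (*Igtp*, *Irgm2*, *Nlrc5*, *Psmb8*, *Psmb9*, *Tap1* and *Zbp1*, adjusted p 0.00485 to 0.0369), against 0.182% of all genes. At an unadjusted p under 0.05, 20 of 23 gamma-type and 2 of 22 type I members were higher without that array. The share of all genes was not counted for that fit. All 23 gamma-type members kept their direction in both wash batches, with medians of 0.69 and 0.58. On the same arrays 9 of 10 T cell and cytotoxic lymphocyte markers were higher in Pxr-/- CONT, with a median difference of 0.83 over the 10, and their part was not tested.

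**Figure D2:**
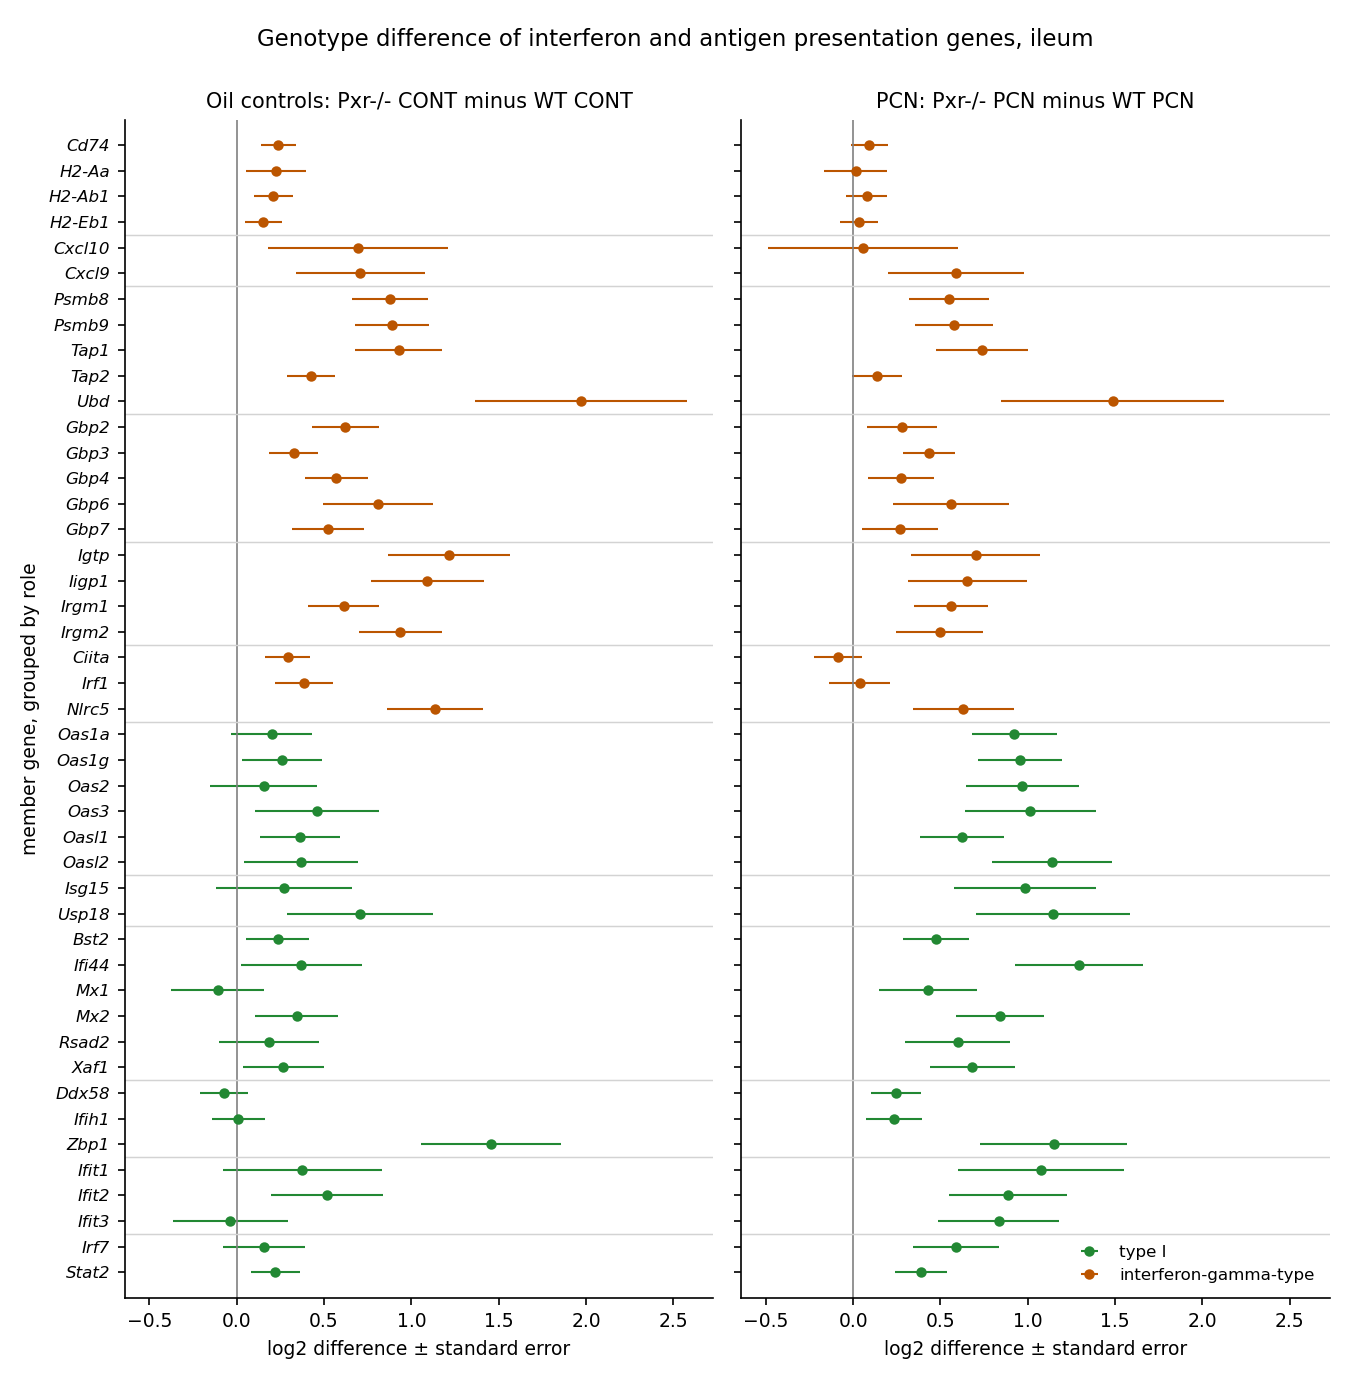
Log2 difference between genotypes with its standard error for each of the 45 members, without PCN (left) and with PCN (right), grouped by role. On the left the gamma-type members lie above 0 from 0.15 (*H2-Eb1*) to 1.97 (*Ubd*) and the type I members from -0.11 (*Mx1*) to 1.45 (*Zbp1*), and on the right the type I members lie between 0.23 (*Ifih1*) and 1.29 (*Ifi44*).

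Class I antigen processing held the largest difference. *Ubd* encodes FAT10, a ubiquitin-like modifier that targets proteins to the proteasome, and its probe lies at chr17:37332688-37332747 on build mm9. On the log2 scale, *Ubd* ranged over 10.07 to 11.93 (median 10.88) in WT CONT and over 12.08 to 13.80 (median 12.97) in Pxr-/- CONT. It read 11.25, 9.27, 9.85, 9.16 and 10.09 on the 5 WT PCN arrays and ranged over 8.42 to 13.86 (median 11.30) in Pxr-/- PCN. The control groups did not overlap, and Pxr-/- PCN spread over both. The difference without PCN was 1.97 ± 0.61, adjusted p = 0.233 (3.92-fold, all 6 arrays above the WT CONT mean). *Psmb8* and *Psmb9*, catalytic subunits of the immunoproteasome, differed by 0.88 ± 0.22, adjusted p = 0.109, and 0.89 ± 0.21, adjusted p = 0.0871, respectively. *Tap1* and *Tap2*, the peptide transporter into the endoplasmic reticulum, differed by 0.93 ± 0.25, adjusted p = 0.149, and 0.42 ± 0.14, adjusted p = 0.265. Every member of this role was higher at an unadjusted p under 0.05.

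The transactivators of MHC genes differed in size. *Nlrc5* encodes the transactivator of MHC class I genes (probe at chr8:97051105-97051164, mm9). On the log2 scale, *Nlrc5* ranged over 8.87 to 9.83 (median 9.42) in WT CONT and over 10.10 to 10.90 (median 10.51) in Pxr-/- CONT. It read 9.95, 9.03, 9.40, 9.23 and 10.09 on the 5 WT PCN arrays and ranged over 8.74 to 10.99 (median 10.31) in Pxr-/- PCN. The control groups did not overlap for *Nlrc5*, and its difference was 1.14 ± 0.27, adjusted p = 0.0959 (2.20-fold, 6 of 6 arrays above the WT CONT mean). *Ciita*, the transactivator of MHC class II genes, differed by 0.29 ± 0.13, adjusted p = 0.502, with ranges of 11.50 to 12.15 (median 12.05) in WT CONT and 11.75 to 12.43 (median 12.37) in Pxr-/- CONT that overlapped. *Irf1*, the transcription factor that relays interferon gamma to many of these genes, differed by 0.38 ± 0.17, adjusted p = 0.492, with 14.20 to 14.84 (median 14.43) in WT CONT and 14.34 to 15.38 (median 14.82) in Pxr-/- CONT. The class II chain genes and the invariant chain were the least displaced of the gamma-type roles, with a median of 0.22 over *H2-Aa*, *H2-Ab1*, *H2-Eb1* and *Cd74*. For *Cd74*, the invariant chain, levels were 15.57 to 16.05 (median 15.91) in WT CONT and 15.95 to 16.23 (median 16.14) in Pxr-/- CONT, a difference of 0.24 ± 0.10, adjusted p = 0.478. For *H2-Aa* they were 12.99 to 13.86 (median 13.73) and 13.59 to 14.12 (median 13.86), a difference of 0.22 ± 0.17, adjusted p = 0.787.

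The interferon-inducible GTPases, which take part in defence against intracellular pathogens, were higher as a group. *Igtp* (also known as Irgm3, probe at chr11:58020927-58020986, mm9) differed most among the immunity-related GTPases. On the log2 scale, *Igtp* ranged over 11.07 to 12.10 (median 11.53) in WT CONT and over 12.14 to 13.46 (median 12.69) in Pxr-/- CONT. It read 12.20, 10.96, 11.89, 11.35 and 12.24 on the 5 WT PCN arrays and ranged over 10.61 to 13.51 (median 12.62) in Pxr-/- PCN. Its control groups did not overlap, with a difference of 1.22 ± 0.35, adjusted p = 0.191 (2.32-fold). *Iigp1*, *Irgm2* and *Irgm1* differed by 1.09 ± 0.32, 0.94 ± 0.24 and 0.61 ± 0.20, and all 4 measured members of this role were higher at an unadjusted p under 0.05. The 5 guanylate-binding proteins were each higher at that threshold, from 0.33 for *Gbp3* to 0.81 for *Gbp6*. *Gbp6* ranged over 8.03 to 9.03 (median 8.35) in WT CONT and 8.80 to 10.00 (median 9.11) in Pxr-/- CONT. The chemokines that attract CXCR3-bearing T cells had wide errors. *Cxcl9* ranged over 8.47 to 9.29 (median 8.86) in WT CONT and 8.93 to 10.25 (median 9.66) in Pxr-/- CONT, a difference of 0.71 ± 0.37, adjusted p = 0.612. *Cxcl10* ranged over 8.73 to 10.33 (median 9.32) and 8.93 to 10.69 (median 10.44), a difference of 0.69 ± 0.52, adjusted p = 0.780. For both chemokines the control groups overlapped.

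Of the type I members, *Zbp1* alone was higher without PCN at an unadjusted p under 0.05 with all arrays. Without Pxr-/- PCN replicate 5 *Usp18* passed that threshold too. ZBP1 senses Z-form nucleic acid and can trigger necroptosis (probe at chr2:173039307-173039366, mm9). On the log2 scale, *Zbp1* ranged over 9.61 to 10.62 (median 9.86) in WT CONT and over 10.80 to 11.80 (median 11.46) in Pxr-/- CONT. It read 10.32, 9.09, 9.49, 8.69 and 9.96 on the 5 WT PCN arrays and ranged over 8.30 to 11.57 (median 10.93) in Pxr-/- PCN. The control groups did not overlap, and on the PCN arrays every Pxr-/- array but replicate 5 was above every WT array. The difference without PCN was 1.45 ± 0.40, adjusted p = 0.159 (2.74-fold, 6 of 6 arrays above the WT CONT mean). The other type I members overlapped between the control groups. Across the 6 members of the Oas family, named for enzymes that make the activator of RNase L, differences ran from 0.15 (*Oas2*) to 0.46 (*Oas3*). *Isg15* differed by 0.27 ± 0.39 and *Usp18*, the protease that removes ISG15, by 0.71 ± 0.42. The transcription factors *Irf7* and *Stat2* differed by 0.16 ± 0.23 and 0.22 ± 0.14, and *Ifit1*, *Oasl2* and *Ifi44* by 0.38 ± 0.45, 0.37 ± 0.33 and 0.37 ± 0.35. In the control groups *Isg15* ranged over 12.18 to 12.94 (median 12.27) in WT and 12.14 to 13.38 (median 12.69) in Pxr-/-, and *Usp18* over 8.22 to 9.46 (median 8.74) and 8.64 to 10.07 (median 9.46). In the same order *Ifit1* ranged over 8.90 to 9.88 (median 9.24) and 9.10 to 10.45 (median 9.51), and *Oasl2* over 11.49 to 12.38 (median 11.70) and 11.64 to 12.60 (median 12.22). WT CONT replicate 3 was the highest WT CONT array in all 4. The members with a negative difference were *Mx1*, *Ddx58* and *Ifit3*, the lowest at -0.11 (*Mx1*). Adjusted p was 0.696 or more for all type I members other than *Zbp1*.

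**Figure D3:**
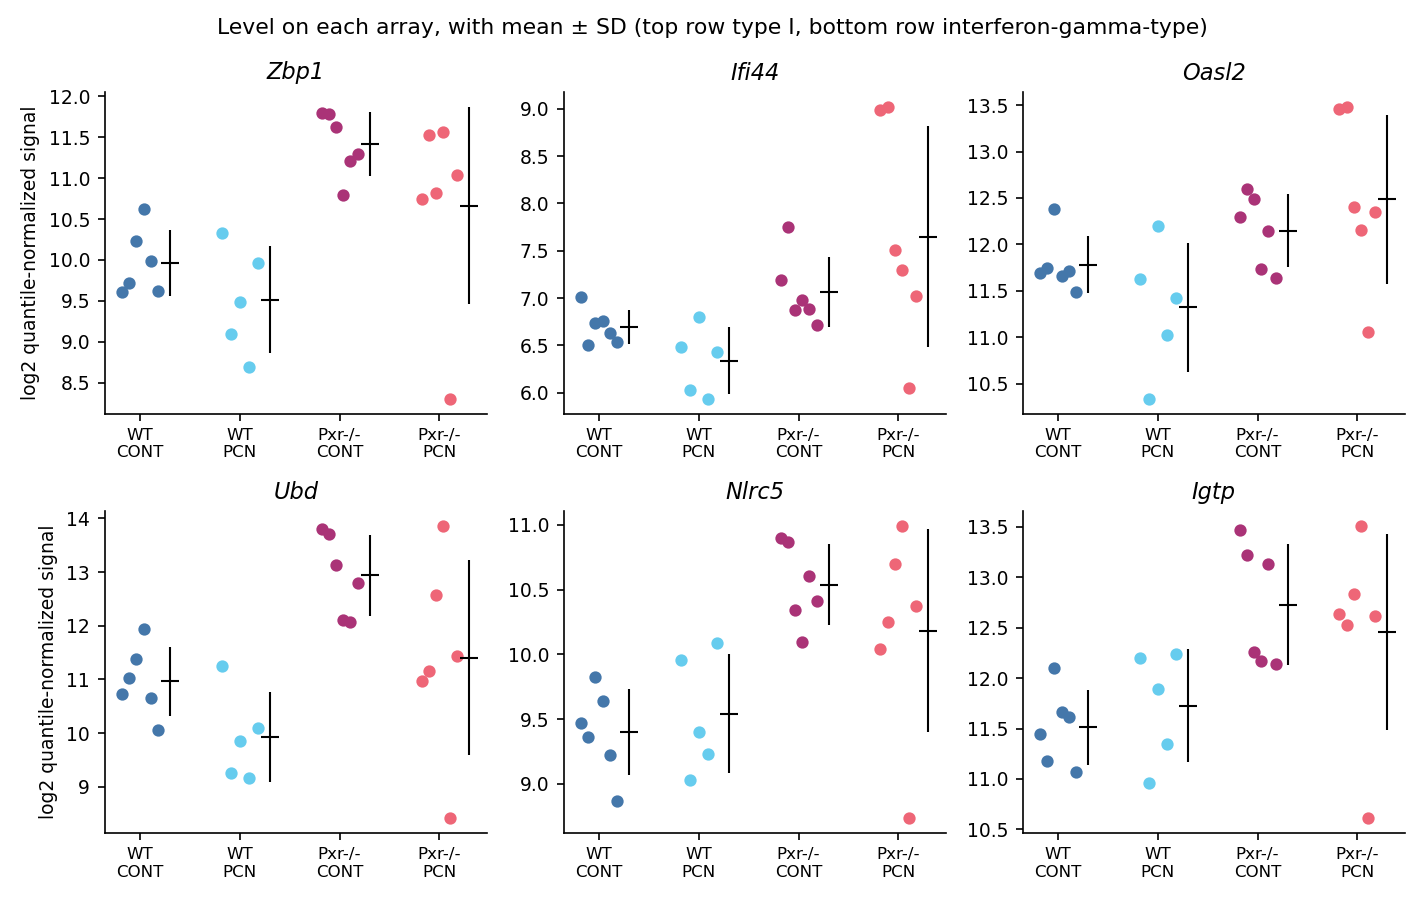
Log2 quantile-normalized signal of 6 members on each array, with the group mean ± SD. *Zbp1*, *Ubd*, *Nlrc5* and *Igtp* separate Pxr-/- CONT from WT CONT, *Ifi44* and *Oasl2* overlap there, and the lowest Pxr-/- PCN point in every panel is replicate 5.

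With PCN, the type I members had the larger median. Between Pxr-/- PCN and WT PCN all 22 type I members were higher in Pxr-/- PCN, with a median log2 difference of 0.86 (1.82-fold), and the gamma-type members had a median of 0.44 with 22 of 23 higher. The median over all genes was 0.01. Again no member was called by limma, where 0.455% of all genes were. At an unadjusted p under 0.05, 18 of 22 type I and 7 of 23 gamma-type members were higher and none was lower, against 3.99% of all genes higher, and the smallest adjusted p was 0.0855 (*Oas1g*). No member had all 6 Pxr-/- PCN arrays above all 5 WT PCN arrays, against 0.36% of all genes. The calls depended on Pxr-/- PCN replicate 5. Without it 14 members were higher past both thresholds (adjusted p 0.00189 to 0.0489), against 0.232% of all genes: the type I members *Ifi44*, *Ifit2*, *Mx2*, *Oas1a*, *Oas1g*, *Oas3*, *Oasl2*, *Usp18* and *Zbp1* and the gamma-type members *Nlrc5*, *Psmb8*, *Psmb9*, *Tap1* and *Ubd*. In that fit *Zbp1* differed by 1.67 ± 0.27, *Ifi44* by 1.63 ± 0.32 and *Ubd* by 2.15 ± 0.50. The medians without it were 1.09 for the type I and 0.55 for the gamma-type members. At an unadjusted p under 0.05, 21 of 22 type I and 14 of 23 gamma-type members were higher without it, against 4.34% of all genes. With another single array left out, type I members higher at that threshold numbered 8 without WT PCN replicate 4 and 11 without Pxr-/- PCN replicate 1, in place of 18, and gamma-type members numbered 2 without WT PCN replicate 4, 3 without Pxr-/- PCN replicate 4, 4 without Pxr-/- PCN replicate 3 and 11 without WT PCN replicate 5, in place of 7.

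Among the type I members, *Ifi44*, an interferon-induced antiviral protein (probe at chr3:151394035-151394094, mm9), differed most with PCN. On the log2 scale, *Ifi44* ranged over 6.50 to 7.01 (median 6.68) in WT CONT and over 6.71 to 7.75 (median 6.93) in Pxr-/- CONT. It read 6.49, 6.03, 6.81, 5.94 and 6.43 on the 5 WT PCN arrays and ranged over 6.05 to 9.02 (median 7.40) in Pxr-/- PCN. Of the 6 Pxr-/- PCN arrays, 5 were above all WT PCN arrays, with replicates 1 and 2 highest at 8.99 and 9.02, while replicate 5 was within the WT PCN range. The difference was 1.29 ± 0.37, adjusted p = 0.168 (2.45-fold). *Oasl2*, an Oas-like protein, read 11.63, 10.33, 12.20, 11.02 and 11.42 in WT PCN and 11.05 to 13.48 (median 12.38) in Pxr-/- PCN, a difference of 1.14 ± 0.34, adjusted p = 0.225. All 6 Oas members were higher at an unadjusted p under 0.05, from 0.62 (*Oasl1*) to 1.14 (*Oasl2*). *Usp18* read 8.63, 7.98, 10.09, 7.50 and 8.47 against 7.68 to 10.56 (median 9.89), a difference of 1.15 ± 0.44, adjusted p = 0.481, and *Isg15* 12.38, 11.38, 13.76, 11.19 and 11.90 against 11.40 to 14.15 (median 13.14), a difference of 0.98 ± 0.41, adjusted p = 0.566. *Ifit1*, which binds viral RNA without the host's cap methylation, read 9.16, 7.77, 10.98, 7.81 and 8.75 against 8.07 to 11.08 (median 10.32), a difference of 1.08 ± 0.48, adjusted p = 0.641. In each of these 4 genes WT PCN replicate 3 was the highest WT PCN array and Pxr-/- PCN replicate 5 the lowest of its group, and the groups overlapped. *Zbp1* differed by 1.15 ± 0.42, adjusted p = 0.433, with 2.29 in wash batch 1 and 0.16 in wash batch 2, which holds replicate 5.

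The transcription factors of the type I response differed less. *Irf7*, the amplifier of type I interferon, read 14.25, 14.10, 14.43, 13.90 and 14.45 in WT PCN and 13.90 to 15.88 (median 14.62) in Pxr-/- PCN, a difference of 0.59 ± 0.25, adjusted p = 0.570, and in the control groups it ranged over 14.14 to 14.68 (median 14.37) and 14.11 to 15.03 (median 14.49). *Stat2* read 11.45, 11.06, 11.97, 11.19 and 11.55 against 11.27 to 12.09 (median 11.94), a difference of 0.39 ± 0.15, adjusted p = 0.467, and its control ranges were 11.12 to 11.80 (median 11.32) and 11.31 to 11.77 (median 11.66). Among the gamma-type members *Ubd* differed by 1.49 ± 0.64, adjusted p = 0.600, *Nlrc5* by 0.63 ± 0.29, *Igtp* by 0.70 ± 0.37, *Gbp6* by 0.56 ± 0.33 and *Cxcl9* by 0.59 ± 0.39. The gamma-type median was 0.67 in wash batch 1 and 0.11 in wash batch 2, where 14 of 23 members had the same sign in both batches, and for the type I members the medians were 0.87 and 0.74, with 22 of 22. *Ciita* (-0.09 ± 0.13), *Irf1* (0.04 ± 0.17), *Cxcl10* (0.05 ± 0.54), *Cd74* (0.09 ± 0.11) and *H2-Aa* (0.01 ± 0.18) lay within 1 standard error of 0, and the sign of *H2-Aa* turned with the scaling. On the 5 WT PCN arrays *Irf1* read 15.20, 14.17, 14.44, 14.17 and 14.90, against 14.42 to 14.75 (median 14.67) in Pxr-/- PCN, and *Ciita* 12.02, 11.97, 12.46, 11.67 and 11.95, against 11.52 to 12.33 (median 11.97). *Cd74* read 15.95, 15.63, 15.59, 15.58 and 15.74 in WT PCN. *Cxcl9* read 9.70, 7.86, 9.59, 8.11 and 9.19 in WT PCN and ranged over 7.70 to 10.48 (median 9.82) in Pxr-/- PCN, and *Cxcl10* ranged over 8.50 to 11.26 (median 10.62) in Pxr-/- PCN. For both chemokines Pxr-/- PCN replicate 5 was the lowest array of its group and WT PCN replicate 2 the lowest of its own.

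PCN against oil was then read within each genotype. In WT mice, type I members had a median of -0.20, with 19 of 22 lower, and gamma-type members a median of -0.01, where all genes had -0.01. No member was called by limma (0.852% of all genes were) and none passed an unadjusted p under 0.05 in either direction, against 12.9% of all genes. The 2 members farthest from 0 were *Ubd*, lower, at -1.05 ± 0.64, adjusted p = 0.557, and *Cxcl10*, higher, at 0.82 ± 0.54, adjusted p = 0.610, and for both the groups overlapped. Without Pxr-/- PCN replicate 5, which belongs to neither group but shares the estimate of spread, 2 gamma-type members (*Cd74* and *Ubd*) were lower at an unadjusted p under 0.05, against 6.9% of all genes lower. In that fit the medians were -0.21 for the type I and -0.02 for the gamma-type members, with 2 of 22 and 11 of 23 higher. *Cxcl10* ranged over 8.73 to 10.33 (median 9.32) in WT CONT and read 11.94, 8.50, 10.55, 9.10 and 11.21 in WT PCN, so that 3 of the 5 treated arrays lay above all controls and replicate 2 below them. By role, the 6 Oas members were all lower, from -0.46 to -0.07, and the 4 immunity-related GTPases all higher, from 0.17 to 0.33.

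In Pxr-/- mice the classes lay on opposite sides of 0. Type I members had a median of 0.30 with 21 of 22 higher after PCN, and gamma-type members a median of -0.26 with 20 of 23 lower, where all genes had -0.0011. No member was called by limma, against 1.19% of all genes. At an unadjusted p under 0.05, 2 type I members (*Oas2* and *Ifit3*) were higher, against 10.2% of all genes higher, and 8 gamma-type members were lower, against 10.2% of all genes lower. These counts depended on Pxr-/- PCN replicate 5. Without it 13 of 22 type I members were higher (*Bst2*, *Ddx58*, *Ifi44*, *Ifit3*, *Irf7*, *Isg15*, *Mx2*, *Oas1a*, *Oas1g*, *Oas2*, *Oasl2*, *Rsad2* and *Stat2*), against 8.57% of all genes higher, and 1 of 23 gamma-type members was lower (*Cd74*), against 7.87% of all genes lower. Whatever the p, 7 of 23 gamma-type members were higher after PCN without replicate 5, in place of 3, and 21 of 22 type I members as before. With all arrays the type I share at that threshold was close to its background and the gamma-type share above it. Without that array the type I share was above it and the gamma-type share was not. The gamma-type count was also 3 without Pxr-/- CONT replicate 2 and 5 without Pxr-/- CONT replicate 1. This comparison shares Pxr-/- CONT with the genotype comparison without PCN, so arrays that put the gamma-type members high there also enter here. The 8 comprised *Psmb8*, *Psmb9*, *Tap2* and *Ubd* of class I processing, *Cd74*, *H2-Aa* and *H2-Ab1* of class II, and *Ciita*. *Cd74* ranged over 15.95 to 16.23 (median 16.14) in Pxr-/- CONT and 15.29 to 15.97 (median 15.84) in Pxr-/- PCN, a difference of -0.33 ± 0.10, adjusted p = 0.0687, and the groups overlapped only between 15.95 and 15.97. *Ubd* differed by -1.53 ± 0.61, adjusted p = 0.163, and without Pxr-/- PCN replicate 4, its highest array, it passed both thresholds at -2.05 (adjusted p = 0.0352). Without Pxr-/- PCN replicate 5, its lowest array, *Ubd* was at -0.90 ± 0.47 (adjusted p = 0.371). *H2-Aa* differed by -0.42 ± 0.17, adjusted p = 0.177, with 12.73 to 14.04 (median 13.44) in Pxr-/- PCN, where the 5 WT PCN arrays read 13.71, 13.61, 13.11, 13.16 and 13.63.

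With all arrays, the remaining named members did not pass an unadjusted p under 0.05 for PCN in Pxr-/- mice. *Zbp1* was the type I member that was lower (-0.75 ± 0.40), and *Ifi44*, *Ifit1*, *Isg15*, *Oasl2*, *Usp18*, *Irf7* and *Stat2* were at 0.58 ± 0.35, 0.38 ± 0.45, 0.48 ± 0.39, 0.34 ± 0.33, 0.23 ± 0.42, 0.31 ± 0.23 and 0.24 ± 0.14. *Nlrc5*, *Irf1*, *Gbp6*, *Igtp* and *Cxcl9* were at -0.36 ± 0.27, -0.22 ± 0.17, -0.30 ± 0.31, -0.27 ± 0.35 and -0.13 ± 0.37, and *Cxcl10* at 0.18 ± 0.52. Without Pxr-/- PCN replicate 5, *Ifi44*, *Stat2*, *Isg15*, *Irf7* and *Oasl2* passed that threshold, at 0.90 ± 0.30, 0.35 ± 0.13, 0.81 ± 0.35, 0.49 ± 0.22 and 0.61 ± 0.29, and *Zbp1* was at -0.26 ± 0.26. In that fit *Igtp* and *Cxcl9* turned to the positive side and the gamma-type median moved from -0.26 to -0.076, while the type I median moved from 0.30 to 0.53. The gamma-type median was -0.10 in wash batch 1 and -0.45 in wash batch 2.

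**Figure D4:**
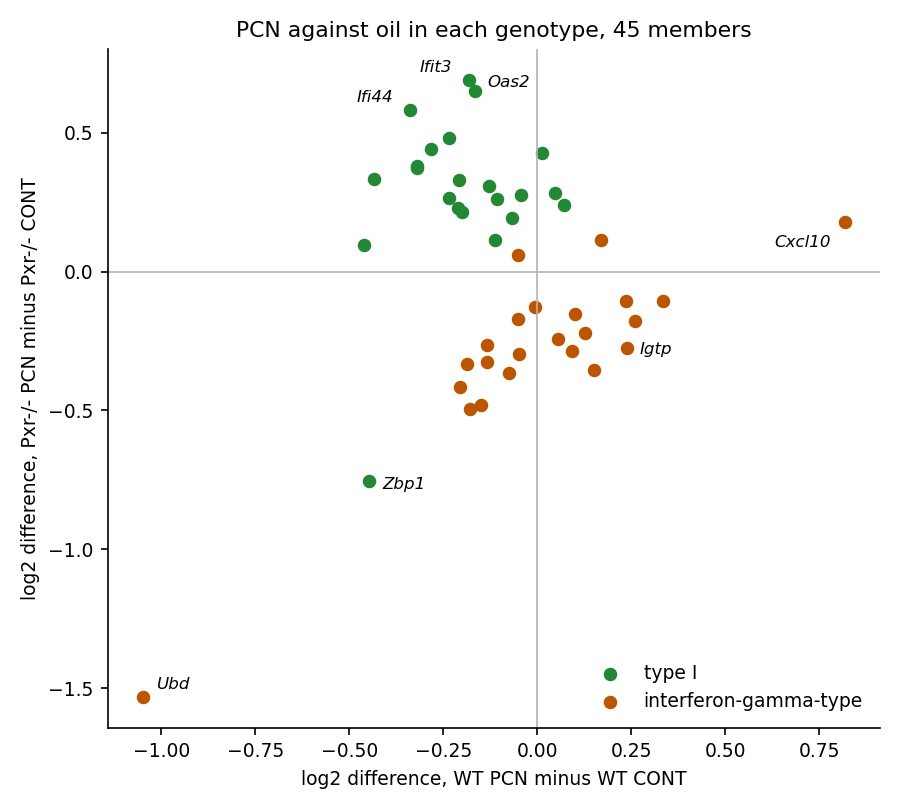
Log2 difference of PCN against oil in WT mice (horizontal) and in Pxr-/- mice (vertical) for the 45 members, coloured by class. Type I members lie above 0 on the vertical axis except *Zbp1*, gamma-type members lie mostly below it, and *Ubd* lies low on both axes, at -1.05 and -1.53.

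Whether the PCN effect itself differed between genotypes was tested as an interaction. The difference of PCN effects (Pxr-/- minus WT) had a median of 0.47 for the type I members, with 21 of 22 positive, and of -0.30 for the gamma-type members, with 22 of 23 negative, while all genes had 0.01. No member was called by limma, against 0.0952% of all genes, and adjusted p was 0.999 or more for all 45. At an unadjusted p under 0.05, 2 members (*Oas1a* and *Oas1g*) were higher, against 2.63% of all genes, and no member was lower. The extremes were *Ifi44* at 0.92 ± 0.51, adjusted p = 0.999, and *Cxcl10* at -0.64 ± 0.75, adjusted p = 0.999. Without Pxr-/- PCN replicate 5 the medians were 0.70 and -0.079. Positive members then numbered 22 of 22 type I and 6 of 23 gamma-type, the latter in place of 1. In that fit 10 type I members passed an unadjusted p under 0.05, all higher (*Ddx58*, *Ifi44*, *Ifit3*, *Isg15*, *Mx2*, *Oas1a*, *Oas1g*, *Oas2*, *Oas3* and *Oasl2*), against 2.21% of all genes higher. With other single arrays left out that count ran from 0 to 7, the highest without WT PCN replicate 3. In wash batch 1 the gamma-type median was 0.01 and in batch 2 -0.50, and the type I medians were 0.63 and 0.41.

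On each array the type I level minus the gamma-type level sets the classes side by side. It ranged over -0.23 to 0.20 in WT CONT (median 0.16), -0.38 to 0.49 in WT PCN (-0.26), -0.61 to 0.14 in Pxr-/- CONT (-0.35) and -0.31 to 0.93 in Pxr-/- PCN (0.11). The ranges of the 4 groups overlapped. For Pxr-/- PCN replicate 5 the difference was 0.15, within the range of its group, so that array was low in both classes by similar amounts. The spread between arrays of a group was larger in the PCN groups than in the control groups, with an SD of 0.68 and 0.47 for the type I level against 0.32 and 0.18 in the Pxr-/- and WT control groups. Without replicate 5 the SD of the Pxr-/- PCN type I level was 0.41, below that of WT PCN.

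Ligands, receptors and signalling genes of the pathway came from a list of other genes. Of the 18 ligand genes on the array 8, *Ifnb1* for interferon beta among them, were too often not well above background to be tested. *Ifng*, the ligand of the gamma-type members, ranged over 6.03 to 7.39 (median 6.75) in WT CONT and 7.48 to 8.70 (median 7.68) in Pxr-/- CONT. It read 7.15, 6.39, 6.02, 6.53 and 7.16 in WT PCN and ranged over 5.58 to 8.46 (median 7.20) in Pxr-/- PCN. Its difference without PCN was 1.09 ± 0.35, adjusted p = 0.263, and with PCN 0.58 ± 0.37, adjusted p = 0.880. Its 12 control arrays did not overlap between genotypes, and with only those arrays in the fit it passed both thresholds. The 6 receptor genes (*Ifnar1*, *Ifnar2*, *Ifngr1*, *Ifngr2*, *Ifnlr1* and *Il10rb*) lay between -0.14 and 0.09 between genotypes without PCN, and none passed an unadjusted p under 0.05 there. *Ifnar2* passed the adjusted p for PCN in Pxr-/- mice (0.35 ± 0.08, adjusted p = 0.0182) but not the fold threshold. *Irf9* differed by 0.17 ± 0.15 without PCN and 0.35 ± 0.16 with it. *Tmem173*, which encodes the DNA-pathway adaptor STING, rose with PCN in WT mice (0.62 ± 0.14, adjusted p = 0.0249), and in Pxr-/- mice it passed the adjusted p but not the fold (0.48 ± 0.13, adjusted p = 0.0495). The call in WT mice was lost under 12 of 37 alternatives, among them leaving out WT CONT replicate 2, 5 or 6 or WT PCN replicate 1, 4 or 5.

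Other effectors and processing genes were counted by role. Without PCN, 12 of 12 further class I processing genes were higher in Pxr-/- CONT (median 0.29, 7 at an unadjusted p under 0.05). So were 6 of 8 further GTPases (median 0.67, 5 at that threshold), among them *Tgtp2* at 0.90 ± 0.25, adjusted p = 0.166. Of all genes 4.47% were higher at that threshold. The 24 further antiviral effectors had a median of 0.10. With PCN, all 24 of those effectors were higher in Pxr-/- PCN (median 0.32, 9 at that threshold, against 3.99% of all genes higher). One of them, *Phf11d*, rose with PCN in Pxr-/- mice (0.66 ± 0.14, adjusted p = 0.0110) and was higher in Pxr-/- PCN than in WT PCN past both thresholds (0.66 ± 0.15, adjusted p = 0.0317). These calls were lost under 4 of 37 and 15 of 37 alternatives, the first without Pxr-/- PCN replicate 1 and the second without any 1 of WT PCN replicates 1, 2, 3 or 5 or Pxr-/- PCN replicates 1, 2 or 3. *Gbp5* was at -0.53 ± 0.11, adjusted p = 0.0263 with PCN, below the fold threshold, which it passed without WT PCN replicate 1 or 3. Of the 10 further class II genes, 5 were lower in Pxr-/- PCN than in WT PCN at an unadjusted p under 0.05, against 854 of all 24167 genes lower. Among the 5 were *H2-Oa* and *H2-Ob*. Of the 10, *H2-DMb2* was lowest at -0.82 and *Ifi30* had the smallest adjusted p, 0.120. For PCN in WT mice 5 of the 10 were higher at that threshold and none was lower, against 1517 of all 24167 genes higher. B cell markers were high in WT PCN replicates 2 and 3, and their part was not tested. *Tgtp2*, *Gbp5*, *H2-Oa*, *H2-Ob*, *H2-DMb2* and *Ifi30* are named here after their values were seen. Over all 89 tested pathway genes, 1 was called for PCN in WT mice, 1 for PCN in Pxr-/- mice and 1 between genotypes with PCN, against 0.852%, 1.19% and 0.455% of all genes in those comparisons, and none in the other comparisons.

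T cell and cytotoxic lymphocyte markers other than *Cd4* lay on the same side of 0 as most gamma-type members in both comparisons of genotypes, and B cell markers did not. Without PCN, 9 of 10 tested T cell and cytotoxic lymphocyte markers were higher in Pxr-/- CONT at an unadjusted p under 0.05, against 4.47% of all genes higher. The other 1, *Cd4*, was lower (-0.32 ± 0.14). *Ccl5*, a chemokine of activated T cells, rose past both thresholds (1.14 ± 0.23, adjusted p = 0.0330), a call lost under 12 of 37 alternatives, among them leaving out any 1 of Pxr-/- CONT replicates 1, 2, 3 or 6 or WT CONT replicates 1, 2, 3, 5 or 6. Chosen after their values were seen, *Gzmb*, *Cd8b1* and *Cd3d* were at 1.19 ± 0.32, 0.95 ± 0.23 and 0.65 ± 0.14, with adjusted p of 0.147, 0.0871 and 0.0524. The summed linear signal of the 10 markers ranged over 31494 to 44887 in WT CONT, 27043 to 47994 in WT PCN, 59942 to 88194 in Pxr-/- CONT and 21126 to 73470 in Pxr-/- PCN, and 10 of the 10 were above background on all 23 arrays. As a mean centred level they lay at 0.20 to 0.58 in Pxr-/- CONT, above the -0.56 to -0.04 of WT CONT. With PCN, 6 of the 10 were higher in Pxr-/- PCN at an unadjusted p under 0.05, against 3.99% of all genes. In Pxr-/- mice 4 of the 10 were lower with PCN than without at that threshold, against 10.2% of all genes. Both counts include Pxr-/- PCN replicate 5, at -0.87 against 0.16 to 0.46 on the others of its group, and are not given without it. The part of these markers in the differences of the members was not tested.

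**Figure D5:**
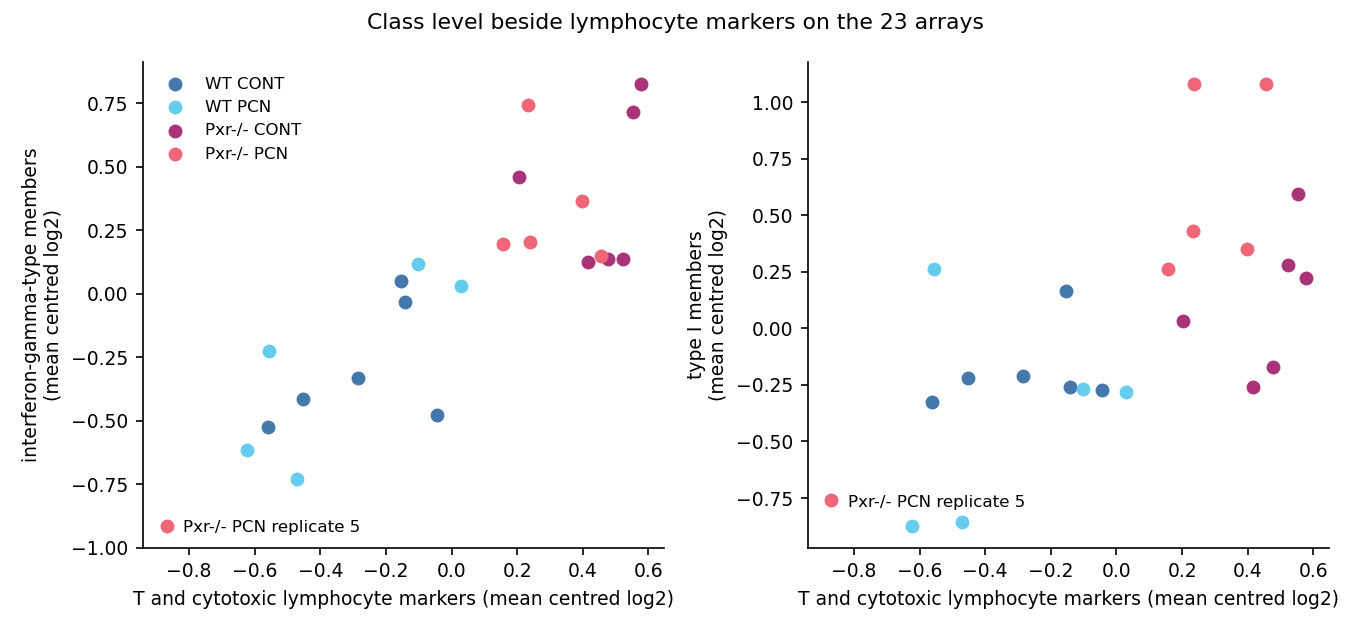
Mean centred log2 level of the gamma-type members (left) and of the type I members (right) (vertical) against that of 10 T cell and cytotoxic lymphocyte markers (horizontal), 1 point per array, coloured by group. In the left panel the Pxr-/- CONT arrays lie to the upper right and Pxr-/- PCN replicate 5, at -0.87 and -0.91, to the lower left, and in the right panel Pxr-/- PCN replicates 1 and 2 are highest in the type I level, near 1.08.

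Markers of other cell types were read in the same way. Markers of macrophages and dendritic cells had a median difference of -0.06 between genotypes without PCN and of 0.06 with PCN, enterocyte markers of 0.05 and 0.03, and plasma cell markers of 0.06 and 0.28. B cell markers were higher with PCN in WT mice for 11 of 11 (median 0.95). Of these, 9 passed an unadjusted p under 0.05, against 1517 of all 24167 genes higher. Their mean centred level was 2.01 and 2.11 on WT PCN replicates 2 and 3, and -0.17 to -0.10 on the rest of that group. B cell markers had a median of -0.70 between genotypes with PCN, with summed linear signals of 3060 to 16403 in WT PCN and 2955 to 6530 in Pxr-/- PCN. With B cell markers as a covariate the type I median with PCN was 1.05 in place of 0.86. Between genotypes with PCN, neutrophil markers had a median of 0.33 with 6 of 7 higher (3 at an unadjusted p under 0.05), fibroblast markers 0.33 with 5 of 6 higher (1 at that threshold) and smooth muscle markers 0.30 with 6 of 6 higher (2 at that threshold). Of all genes 3.99% were higher at that threshold. Only 3 of the 7 neutrophil markers were above background on every array. Among 7 neutrophil markers, *S100a8* and *S100a9* rose past both thresholds with PCN in both genotypes, and *Retnlg* did in Pxr-/- mice. *Ly6g* was at -0.26 ± 0.12 in WT and -0.23 ± 0.11 in Pxr-/- mice, lower at an unadjusted p under 0.05 in both. At that threshold 5 of the 7 were higher in each genotype, against 1517 of all 24167 genes in WT and 10.2% in Pxr-/- mice. Markers of smooth muscle (*Actg2*, *Cnn1* and *Tagln*, 3 of 6) and fibroblasts (*Col1a1*, *Col3a1* and *Lum*, 3 of 6) rose with PCN in Pxr-/- mice, as did *Cd68* of macrophages. In WT mice the fibroblast marker *Lum* rose. Whether these take part in the values of the members was not tested.

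Other probes of the same genes gave a check on the choice of probe. For 19 members a further 26 tested probes existed. Their sign matched that of the probe used in 25 of 26 for the genotype difference without PCN, 24 of 26 with PCN, 20 of 26 for PCN in WT mice, 22 of 26 for PCN in Pxr-/- mice and 26 of 26 for the interaction. The single call among them was a second probe of *Ciita*, lower with PCN in Pxr-/- mice.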

How the data were processed

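Total RNA (150 ng) from whole ileum of 23 mice was labelled and hybridised to single-colour Agilent arrays by the authors. The deposited scanner files hold spot intensity from Agilent Feature Extraction 10.10.1.1, not normalized, with probe positions on mm9. A table of log2 values that the authors describe as normalized and corrected for wash batch was used as an alternative, since scanner files were at hand. Its columns held the same sorted values. Each ranked its probes nearly as the uncorrected log2 median signal of its array did (Spearman correlation 0.9995 to 0.9997). Median intensity was taken to log2 without background subtraction, outlier and control spots were left out, replicate spots averaged and arrays quantile normalized (R 4.3.3, limma 3.58.1 and data.table version 1.17.8). Probes well above background on at least 50% of the arrays of any group were tested (37591 probes) with limma, with 4 groups and wash batch as terms. Calls needed a Benjamini-Hochberg adjusted p no higher than 0.05 over all tested probes and a fold over 1.5. Errors after ± are standard errors of fitted log2 differences unless SD is named. Each array is a separate mouse, and the number of arrays limits the precision. Members, lists and tests were chosen with earlier results of these data known. Values by array are given for the member with the largest change in each role and for 10 members chosen by name, and the remaining members were named after their values were seen. The method recovered known changes in simulated data, where noise was independent between probes and the changes were larger than most member differences. Genes that move together, or an array like Pxr-/- PCN replicate 5, were not simulated, so this does not bear on calls that turn on that array. A gene of the signalling list is not reported here. Promoter sequences are from RefSeq (GRCm38.p6). Alternatives covered normalization, filters, batch, slide and replicate blocks, probe choice and leaving out each array.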

Additional observations from a re-analysis of the deposited data

Results flagged for a closer look

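Of 80 sets of arrays examined, 1 group at a time for each of 18 named members and both class levels, 10 held an array far from the others of its group. For 1 set chance gives about 1 in 20. The sets share arrays and the class levels include the members, so the 80 are not independent and that rate does not apply to their count. Pxr-/- PCN replicate 5 was low in 6 of the 10. Its log2 level was 8.30 for *Zbp1* against 10.74 to 11.57 on the other 5 arrays, 10.61 for *Igtp* against 12.53 to 13.51, and 7.68 for *Usp18* against 9.68 to 10.56. For *Stat2* it was 11.27 against 11.89 to 12.09, and for *Cd74* 15.29 against 15.81 to 15.97. Its mean centred gamma-type level was -0.91 against 0.15 to 0.74. WT CONT replicate 3 was high in 3, with *Oasl2* at 12.38 against 11.49 to 11.74, *Isg15* at 12.94 against 12.18 to 12.45 and the mean centred type I level at 0.16 against -0.33 to -0.21. WT CONT replicate 1 was low for *H2-Aa*, at 12.99 against 13.68 to 13.86. On Pxr-/- PCN replicate 5 neutrophil markers had a mean centred level of 1.33, smooth muscle markers 0.80 and T cell and cytotoxic lymphocyte markers -0.87, and their part was not tested. Of the 7 neutrophil markers, 3 were above background on every array.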

How the results depend on the processing

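Over the alternatives run, the type I and gamma-type medians ran over 0.18 to 0.35 and 0.51 to 0.71 between genotypes without PCN, 0.65 to 1.09 and 0.11 to 0.67 with PCN, -0.44 to -0.02 and -0.11 to 0.14 for PCN in WT mice, 0.16 to 0.53 and -0.45 to -0.08 for PCN in Pxr-/- mice and 0.28 to 0.70 and -0.50 to 0.01 for the interaction. The gamma-type median changed sign under 12 of 37 alternatives for PCN in WT mice and under 1 of 36 (within wash batch 1) for the interaction. Over 79 gene values there were 2921 alternative values, of which 2813 kept direction and side of the threshold, 28 gained a call, 43 lost one (*Ccl5*, *Tmem173* and *Phf11d*) and 37 changed sign. Counts of calls changed as follows, and the cause was not tested. With only the groups compared in the fit, 7 members were called between genotypes without PCN, and type I members higher at an unadjusted p under 0.05 with PCN numbered 11. That count was 8 within wash batch 1 and 9 within wash batch 2, where fewer arrays enter, and the gamma-type count without PCN was 7 within wash batch 2. Within wash batch 1, 1 member was called between genotypes with PCN. Using all tested probes, 1 member was called for PCN in Pxr-/- mice. With the replicate number as a block, 1 member (*Oas1a*) was called between genotypes with PCN. At an unadjusted p under 0.05, leaving out each array in turn gave 13 to 20 gamma-type members higher between genotypes without PCN, 8 to 21 type I and 2 to 14 gamma-type members higher with PCN, 0 to 13 type I members higher and 1 to 8 gamma-type members lower for PCN in Pxr-/- mice, and 0 to 10 type I members higher in the interaction. The gamma-type count with PCN was 3 with only the groups compared, 14 and 0 within wash batches 1 and 2, and 1 without WT PCN replicates 2 and 3. For PCN in Pxr-/- mice the gamma-type count was 0 within wash batch 1, and the type I count 0 with 75th percentile scaling, median centring, the B cell covariate or within wash batch 2, 1 with only the groups compared and 4 with the replicate block or all tested probes. The type I count of the interaction was 0 with 75th percentile scaling, 1 with normexp or within either wash batch, 4 with the replicate block and 5 with the B cell covariate. The counts by class under alternatives were chosen after seeing the data. The numbers did not pair the arrays, since 5 of 33 same-numbered pairs correlated above 0.1 and 2 arrays correlated best with their own number.

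The sign of the following values changed, and the cause was not tested. For *H2-Aa* between genotypes with PCN the difference was -0.0016 with 75th percentile scaling, -0.0046 with median centring, -0.39 within wash batch 2, -0.018 with B cell markers as a covariate and -0.041 without WT PCN replicates 2 and 3, an alternative chosen after seeing the data. In the last 3 of these, in that order, *Irf1* was at -0.15, -0.061 and -0.13 and *Cxcl10* at -0.37, -0.11 and -0.43. *Ciita* was at 0.018 within wash batch 1, 0.020 with the covariate and 0.035 without those replicates. Within wash batch 2, *Cd74* was at -0.081 and *Ifng* at -0.077. For PCN in Pxr-/- mice, values within wash batch 1 were 0.28 for *Cxcl9*, 0.017 for *Nlrc5*, 0.046 for *Igtp*, 0.12 for *Zbp1* and -0.040 for *Cxcl10*, and *Usp18* was at -0.35 within wash batch 2.

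Leaving out 1 array at a time gave 0 to 1 members called for PCN in Pxr-/- mice, 0 to 7 between genotypes without PCN and 0 to 14 with PCN, the highest without Pxr-/- PCN replicate 4, 5 and 5. With PCN the genotype difference ranged over -0.12 to 0.19 for *H2-Aa*, -0.37 to 0.49 for *Cxcl10* and -0.070 to 0.19 for *Irf1*. For PCN in Pxr-/- mice it ranged over -0.30 to 0.22 for *Cxcl9*, -0.47 to 0.088 for *Igtp* and -0.061 to 0.55 for *Cxcl10*. With 5 or 6 arrays a group and 1 array that moved the calls, an adjusted p above 0.05 does not show that a member did not differ.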
